A study of Mus musculus with 14 samples.

Results

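The genes described here encode the Fraser complex, *Fras1*, *Frem1* and *Frem2* with its adaptor *Grip1*, and the nephronectin and integrin alpha 8 pair, *Npnt* and *Itga8*. They were chosen by name, as 6 genes of the 55861 listed in at least 1 of the 2 deposited read-count tables, and all 6 were listed in both tables. RNA-Seq had been performed on GFP-sorted cells of embryonic mouse kidneys, with both kidneys of an embryo combined in a library, in mice of mixed C57BL6/Rcc and 129/SvEv background. The ureteric bud (UB) libraries were 4 UB dko at E12.5, HoxB7Cre-GFP with Mek1fl/fl and Mek2-/-, set against 4 UB ctrl, HoxB7Cre-GFP with Mek1fl/+ and Mek2+/- in libraries 1, 3 and 4 or Mek2+/+ in library 2. The nephron progenitor (NP) libraries, whose genotype label reads MM for metanephric mesenchyme, were 3 NP dko at E13.5, Six2-TGC with Mek1fl/fl and Mek2-/-, set against 3 NP ctrl, Six2-TGC with Mek1fl/+ and Mek2+/+. MEK1 and MEK2 are the kinases that activate ERK in the MAPK pathway, so dko cells are meant to lack this signal. All 14 libraries carried a Cre transgene with GFP and at least 1 floxed *Mek1* allele, the Cre acts on *Mek1* only in its own lineage, and the dko labels give *Mek2* as lost in the whole embryo.

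FRAS1, FREM1 and FREM2 are very large extracellular proteins that assemble into one complex under embryonic epithelia and stabilize each other there, and loss of any of them can leave the kidney absent, as in Fraser syndrome. GRIP1 is a cytoplasmic scaffold with several PDZ domains that binds the tails of FRAS1 and FREM2 and brings them to the basal side of the cell. Nephronectin is a ligand in the basement membrane of the ureteric bud, and its receptor, integrin alpha 8 paired with beta 1, stands on the mesenchymal cells that face it and is needed for the mesenchyme to keep up *Gdnf* and so call the bud in.

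3 short coding stretches show the points at which these proteins meet, read from GENCODE M21 transcripts (GRCm38) and written 5′ to 3′ on the sense strand. The first pair is the end of the *Fras1* and *Frem2* coding sequences, with the last 4 codons before the stop in capitals, since this tail is what GRIP1 binds. The third is the stretch of *Npnt* around its in-frame codons for arginine, glycine and aspartate, in capitals, the tripeptide that integrin alpha 8 recognizes.
*Fras1* tail, chr5:96781739-96781768, plus strand, exon 74 of 74: cacaacaatttacaagatGGGACGGAAGTT
*Frem2* tail, chr3:53516535-53516564, minus strand, exon 24 of 24: cagagccactacaacgacAGCTCGGAGGTG
*Npnt* integrin site, chr3:132904662-132904682, minus strand, exon 10 of 14: cagaaacccAGAGGAGATgtg

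The bases just upstream of 2 members called in a dko comparison are shown next, 250 bases ending at the gene start, from RefSeq (GRCm38.p6). *Frem2* is the member that fell in UB dko. *Itga8* is the receptor gene that was higher in NP dko, a call lost with the correction for GC content and length described below. Entries matched 5 of the 6 members by symbol, all but *Fras1*.
*Frem2* upstream, chr3:53657356-53657605, minus strand: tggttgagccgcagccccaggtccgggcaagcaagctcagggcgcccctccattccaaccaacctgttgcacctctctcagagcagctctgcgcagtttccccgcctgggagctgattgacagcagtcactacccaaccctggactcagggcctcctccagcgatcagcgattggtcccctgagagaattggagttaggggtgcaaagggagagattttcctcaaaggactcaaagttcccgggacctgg
*Itga8* upstream, chr2:12301945-12302194, minus strand: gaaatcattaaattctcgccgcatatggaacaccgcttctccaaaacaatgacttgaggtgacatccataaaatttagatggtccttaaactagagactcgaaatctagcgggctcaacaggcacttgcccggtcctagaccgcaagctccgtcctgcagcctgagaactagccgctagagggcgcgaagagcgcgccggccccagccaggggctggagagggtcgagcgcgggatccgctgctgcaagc
Both strands were searched for 3 motifs, the ETS core CCGGAA, the related PEA3 type AGGAAG and the AP-1 letters TGANTCA, which is its own reverse complement, and none lies in either window, which is why both are printed without capitals. Of 32851 windows of the same length in the table, 12% held the ETS core, 29.5% the PEA3 type and 6.75% the AP-1 letters. Windows of the other members with an entry were searched too. Those of *Frem1* held an ETS core at -201 and PEA3 type letters. Those of *Grip1* held PEA3 type letters at -137 and -149, and those of *Npnt* held no motif.

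The genes are long and lie apart. *Fras1* (ENSMUSG00000034687) spans chromosome 5 from 96373955 to 96784728, *Frem1* (ENSMUSG00000059049) chromosome 4 from 82897920 to 83052339, *Frem2* (ENSMUSG00000037016) chromosome 3 from 53513938 to 53657355, *Grip1* (ENSMUSG00000034813) chromosome 10 from 119453830 to 120087261, *Npnt* (ENSMUSG00000040998) chromosome 3 from 132881745 to 132950291 and *Itga8* (ENSMUSG00000026768) chromosome 2 from 12106632 to 12301922, all on GRCm38. Their summed exons run from 5.026 kb in *Npnt* to 17.709 kb in *Fras1*, and the longest coding sequence of *Fras1*, 12030 bases, stands against 1827 bases in *Npnt*. Exons of other genes overlap only *Fras1*, by 159 bases of the antisense *Gm42604*, and *Itga8*, by 372 bases of the antisense *E030013I19Rik*. All UB libraries together held 83 counts of *Gm42604* against 25675 of *Fras1*, and all NP libraries 270 counts of *E030013I19Rik* against 5614 of *Itga8*. Whether the counting used strand is not given in the sources used here.

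Levels below are normalized CPM, the read counts scaled to a common library size after TMM scaling. That scaling was within a tissue, except that control levels per kb were scaled over UB ctrl and NP ctrl together and correlations over all 14 libraries. Fold changes are on the log2 scale (log2FC). Adjusted p-values are from the quasi-likelihood test of edgeR with Benjamini-Hochberg adjustment over all genes tested, with 0.05 as the threshold. Totals ran from 4857053 to 7493144 counts in UB dko, from 5141500 to 6310510 in UB ctrl, from 1443582 to 3438297 in NP dko and from 5880919 to 6442484 in NP ctrl, so counting error is largest in NP dko. *Map2k2*, the gene for MEK2, had 2.46 to 5.37 CPM in NP dko, against 45.8 to 60.5 CPM in NP ctrl. The libraries labelled UB dko 1 and 3 had 46 and 49.4 CPM, inside the 32.6 to 65.3 CPM of UB ctrl, while those labelled UB dko 2 and 4 had 7.11 and 10.8 CPM. Summed over 14 MAPK/ERK target genes, UB dko 1, 2, 3 and 4 had 1480, 1000, 904 and 825 CPM, against 1770 to 3120 CPM in UB ctrl. The same sum was 876 to 1360 CPM in NP dko and 1360 to 1600 CPM in NP ctrl. In the libraries labelled UB dko 2 and 4 and in all 3 NP dko, genes of low GC content read high relative to genes of high GC content, by 1.59 to 3.2 log2 units between the outer quintiles of GC content, against -0.27 to 0.46 in the other 9 libraries, and the *Map2k2* transcript has 60.4% GC. *Map2k1*, the gene for MEK1, which a floxed allele need not remove from whole-gene counts, had 27.8 to 38.6 CPM in UB dko against 20.5 to 30 CPM in UB ctrl. *Ret*, which marks UB epithelium, was lower in all 4 UB dko, at 74 to 130 CPM against 335 to 365 CPM in UB ctrl, and was at or under 0.886 CPM in every NP library, where *Six2* marked the progenitors at 160 to 574 CPM in NP dko and 476 to 736 CPM in NP ctrl.

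Which cells express which member was asked first in the control libraries. The members parted by tissue: *Frem2*, *Npnt*, *Fras1* and *Grip1* were higher in UB ctrl, and *Itga8* and *Frem1* were higher in NP ctrl. All 6 passed the test, 4 higher and 2 lower in UB ctrl, where 16.7% of the 14078 genes tested were higher and 15% were lower. The members' median log2FC was 1.71, beside 0.01 over all genes tested. The tissues also differ in stage, Cre driver and *Mek2* alleles, which cannot be told apart here.

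The ligand and its receptor stood on opposite sides. *Npnt* had 74.8, 73.6, 74.1 and 72.9 CPM per kb of exon in UB ctrl, against 3.2, 2.71 and 7.41 CPM per kb in NP ctrl (log2FC 4.05, SE 0.33, adjusted p = 1.08e-05, edgeR). *Itga8* had 0.255 ± 0.154 CPM per kb in UB ctrl (SD, n = 4) and 27 ± 4.41 CPM per kb in NP ctrl (SD, n = 3), a 104-fold higher level in NP ctrl (log2FC -6.69, SE 0.26, adjusted p = 1.07e-12, edgeR). The groups did not overlap for either gene, and the share of all genes without overlap between UB ctrl and NP ctrl was not counted.

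Within the Fraser complex, *Frem2* and *Fras1* were UB genes and *Frem1* was a mesenchymal one. *Frem2* had 121 ± 9.77 CPM per kb in UB ctrl (SD, n = 4) and 12.2 ± 2.73 CPM per kb in NP ctrl (SD, n = 3), 9.91-fold higher in UB ctrl (log2FC 3.31, SE 0.15, adjusted p = 3.89e-12, edgeR). *Fras1* had 31.6 ± 2.62 CPM per kb in UB ctrl and 7.59 ± 1.87 CPM per kb in NP ctrl, 4.16-fold higher in UB ctrl (log2FC 2.06, SE 0.15, adjusted p = 3.01e-09, edgeR). *Frem1* ran the other way, with 0.529 ± 0.234 CPM per kb in UB ctrl and 18 ± 3.86 CPM per kb in NP ctrl, 34.2-fold higher in NP ctrl (log2FC -5.10, SE 0.29, adjusted p = 5.06e-08, edgeR). *Grip1*, the adaptor, was low in both, at 5.33 ± 0.458 CPM per kb in UB ctrl and 2.08 ± 0.184 CPM per kb in NP ctrl (log2FC 1.35, SE 0.21, adjusted p = 4.44e-05, edgeR).

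Ordered by level per kb of exon, UB ctrl held *Frem2* highest, then *Npnt*, *Fras1* and *Grip1*, with no overlap of libraries between neighbours. *Frem1*, at 0.252 to 0.745 CPM per kb, and *Itga8*, at 0.128 to 0.478 CPM per kb, came last and overlapped. In NP ctrl *Itga8* led at 22.5 to 31.3 CPM per kb, above *Frem1* at 13.6 to 20.7 CPM per kb. *Frem2*, at 10.4 to 15.3 CPM per kb, overlapped *Frem1*, and *Fras1*, at 6.26 to 9.72 CPM per kb, overlapped *Npnt*, at 2.71 to 7.41 CPM per kb. *Grip1* was lowest, at 1.91 to 2.28 CPM per kb, below each NP ctrl library of the other members. The lengths used were the summed exons, 13978 bases in *Frem1* and 7368 in *Itga8*, where the longest transcripts have 9690 and 5812 bases. The order and overlap of neighbouring genes can therefore change with the length used.

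**Figure D1:**
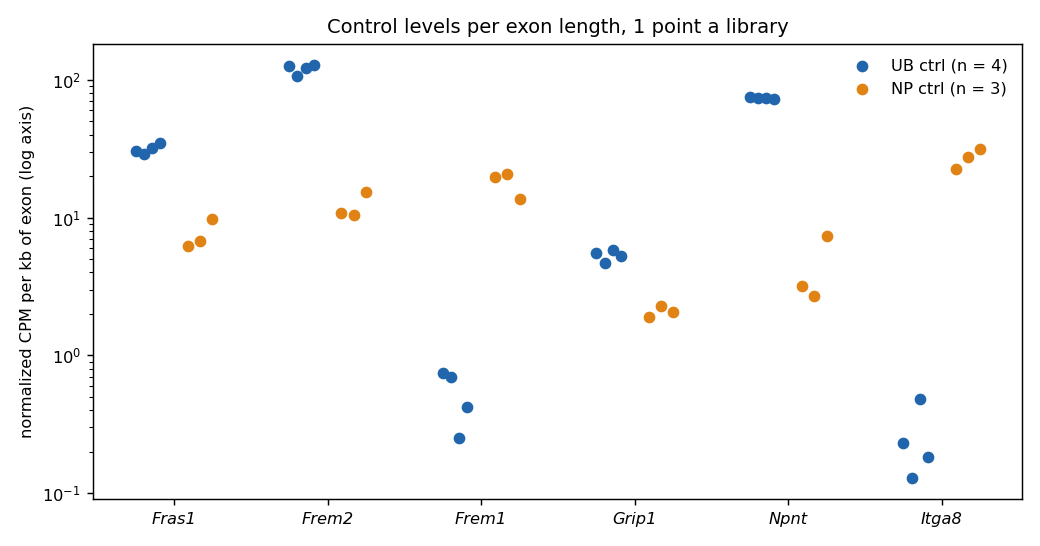
Level of each member in every control library, as normalized CPM per kb of exon on a log axis, with UB ctrl (n = 4) left of NP ctrl (n = 3). *Frem2*, *Fras1*, *Grip1* and *Npnt* points lie higher in UB ctrl, and those of *Frem1* and *Itga8* lie higher in NP ctrl, with no overlap for any member. The share of all genes without overlap between these groups was not counted.

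What the loss of MEK1 and MEK2 did to the members in the ureteric bud was asked next. *Frem2* fell to about 0.486 of its control level, *Fras1* and *Grip1* did not pass the test, and *Npnt* was higher in every dko library without passing it. Of the 5 members tested, 1 was lower and 0 were higher by edgeR, where 1.24% of the 13425 genes tested were lower and 2.7% were higher. At an unadjusted p under 0.05, 2 were higher, DESeq2 called 0 higher and limma voom 2. The members' median log2FC was 0.49, beside 0.06 over all genes tested, which libraries scaled by size alone moved to -0.28. *Itga8* was too low to be fitted.

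*Frem2*, the larger FREM protein of the basal complex and the highest member in control bud cells, had 921, 546, 658 and 700 CPM in UB dko, against 1500, 1280, 1480 and 1550 CPM in UB ctrl. Every dko library lay below every control library, and 15.2% of all genes tested had groups without overlap, in either direction. The means were 706 ± 157 CPM in UB dko and 1450 ± 118 CPM in UB ctrl (SD, n = 4 each), and *Frem2* fell (log2FC -1.04, SE 0.19, adjusted p = 0.0163, edgeR). DESeq2 gave -1.04 with an adjusted p of 6.95e-05. The change was -0.92 (adjusted p = 0.00371, edgeR) with only the libraries labelled UB dko 1 and 3, whose *Map2k2* level lay inside the UB ctrl range. It was -1.22 (adjusted p = 4.86e-06, edgeR) with only those labelled UB dko 2 and 4, which carry the GC trend. These pairs were chosen after the data were seen, and gave 1168 and 5841 calls over all genes, against 528 in the main fit. With GC and length offsets, a correction per library for trends in the counts with a transcript's GC content and its length, the *Frem2* change was -1.14 (adjusted p = 4.13e-05, edgeR). The call was lost without UB dko library 4 (adjusted p = 0.0515, edgeR) and without UB ctrl library 1, 2, 3 or 4 (0.0592, 0.0657, 0.0737 and 0.072), at changes of -1.10 to -1.01. Summed levels of 10 UB epithelium markers were 2780 to 3110 CPM in UB dko and 3580 to 3630 CPM in UB ctrl. Their median log2FC was -0.01, and 2 of the 10 passed the test, *Ret* and *Gfra1*, both lower. Over all genes tested 1.24% were lower. The paper, from these same data, lists *Frem2*, *Ret* and *Gfra1* alike among genes known as enriched in bud tips and lower in the dko bud. In bulk samples fewer cells of a type and less RNA per cell cannot be told apart.

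*Fras1*, the partner of FREM2 in the complex, had 622, 429, 625 and 460 CPM in UB dko, against 482, 467, 519 and 564 CPM in UB ctrl. The groups overlapped, and the means of 534 ± 104 CPM in UB dko and 508 ± 43.4 CPM in UB ctrl (SD, n = 4 each) differed by less than their spread (log2FC 0.07, SE 0.18, adjusted p = 0.857, edgeR). The higher pair of dko values came from the libraries labelled UB dko 1 and 3 and the lower pair from the libraries with the GC trend. *Fras1* kept no direction across the other settings, from -0.28 with library size alone to 0.26 with the libraries labelled UB dko 1 and 3.

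The unequal course of the 2 partners was seen most plainly as a ratio inside each library, a measure that no scaling of libraries changes and that was chosen after the values were seen. Per kb of exon, *Frem2* stood to *Fras1* as 1.98, 1.7, 1.41 and 2.03 in UB dko, against 4.16, 3.67, 3.8 and 3.67 in UB ctrl. No dko library came near a control library. The means were 1.78 ± 0.286 in UB dko and 3.82 ± 0.232 in UB ctrl (SD, n = 4 each), a log2 difference of -1.12 (exact permutation test, two-sided, p = 0.029, the smallest that 70 permutations can give). The *Frem2* and *Fras1* transcripts have 51.8% and 52.1% GC, and with GC and length offsets their own changes in UB were -1.14 and -0.06. The ratio itself was not tested with the offsets.

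**Figure D2:**
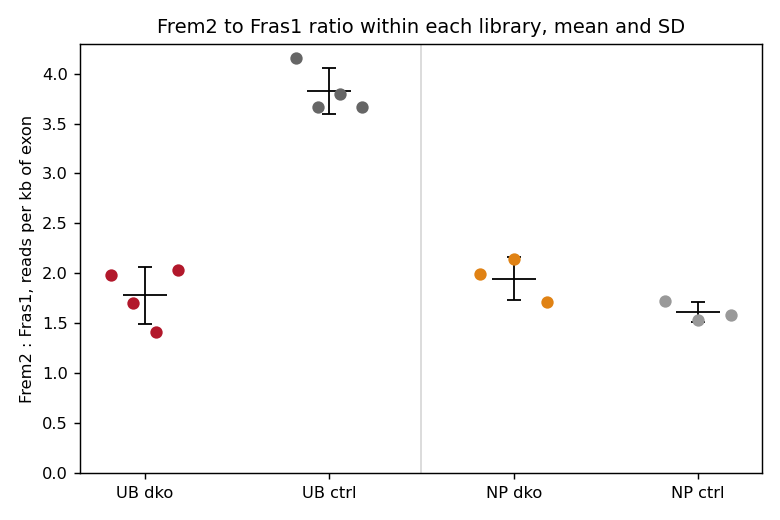
Ratio of Frem2 to Fras1 within each library, reads per kb of exon, in UB dko and UB ctrl (n = 4 each) and NP dko and NP ctrl (n = 3 each), with means and SD as bars. The UB dko ratios of 1.41 to 2.03 lie below the UB ctrl ratios of 3.67 to 4.16, and those of NP dko, 1.71 to 2.14, overlap those of NP ctrl, 1.53 to 1.72.

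*Npnt* had 412, 493, 559 and 424 CPM in UB dko, against 339, 335, 341 and 333 CPM in UB ctrl. Every dko library lay above every control library, where 15.2% of all genes tested had groups without overlap in either direction, and the control libraries were close to each other. The means were 472 ± 68 CPM in UB dko and 337 ± 3.68 CPM in UB ctrl (SD, n = 4 each; log2FC 0.49, SE 0.16), and the difference did not pass the test over all genes (adjusted p = 0.117, edgeR; DESeq2 0.0678). It passed with GC and length offsets (log2FC 0.48, adjusted p = 0.0147, edgeR) and within each pair of dko libraries, at 0.49 for 1 and 3 (adjusted p = 0.0498) and 0.44 for 2 and 4 (adjusted p = 0.011). Calls over all genes numbered 1316 with the offsets, 1168 with 1 and 3 and 5841 with 2 and 4, against 528 in the main fit. The pairs were chosen after the data were seen. Scaled by library size alone the *Npnt* change was 0.10. In UB dko library 3 *Gm42418* alone took 32.5% of counts, against 3.26% to 4.65% in the other UB libraries, and mitochondrial rRNA took 1.4% to 7.02% in UB dko and 1.05% to 1.37% in UB ctrl.

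*Grip1* had 39.6, 78.7, 50.3 and 55.9 CPM in UB dko, against 40.3, 34.4, 42.6 and 38.8 CPM in UB ctrl. UB dko library 1 lay inside the control range and the other dko libraries above it (log2FC 0.52, SE 0.24, adjusted p = 0.238, edgeR). The libraries labelled UB dko 1 and 3 alone gave 0.16 (adjusted p = 0.712, edgeR), and those labelled 2 and 4, which carry the GC trend, 0.78 (adjusted p = 0.00374, edgeR). Over all genes these pairs gave 1168 and 5841 calls, against 528 in the main fit.

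*Frem1* and *Itga8*, the members of the mesenchyme, were scarce in the bud libraries. *Frem1* had 29.6, 7.11, 2.67 and 1.32 CPM in UB dko, against 9.39, 8.86, 3.22 and 5.35 CPM in UB ctrl (log2FC 0.62, SE 0.80, adjusted p = 0.705, edgeR), and without UB dko library 1 its change was -0.88 (adjusted p = 0.402, edgeR). *Itga8* had 38, 1, 0 and 3 read counts in UB dko, against 9, 6, 23 and 8 in UB ctrl, which in normalized terms was 4.94, 0.237, 0 and 0.496 CPM against 1.54, 0.857, 3.22 and 1.22 CPM. Its mean log2 difference was -1.45 (exact permutation test, two-sided, p = 0.286, where 0.029 is the smallest possible). UB dko library 1 held most of the dko reads of both genes.

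That library also held the most *Six2* and *Foxd1* reads of the UB libraries, but not of every marker of neighbouring cells. *Six2*, of nephron progenitors, had 86, 0, 0 and 0 counts in UB dko and 20, 22, 68 and 11 in UB ctrl, and *Foxd1*, of stroma, had 76, 16, 13 and 9 counts in UB dko and 1, 10, 8 and 3 in UB ctrl. *Cited1*, another nephron progenitor gene, had 38 counts there and 105 in UB dko library 3. Of the UB ctrl, library 3 had the most *Six2* and *Itga8* counts and the fewest *Frem1* counts (23, against 35 to 62 in the others). Summed over 10 stroma markers the level was 120 CPM in UB dko library 1, 16.4 to 28.2 CPM in the other UB dko and 14 to 49.5 CPM in UB ctrl, and over 10 nephron progenitor markers 45.7, 11.1, 32.2 and 11.9 CPM in UB dko and 12.1 to 35.2 CPM in UB ctrl, with 1 to 6 of the 10 at 0 in UB dko. Endothelium markers summed to 22.1 CPM in UB dko library 1 and up to 47.4 CPM in UB ctrl, and leukocyte markers to 24 CPM there and up to 32.4 CPM in UB ctrl. The part of such cells in the *Frem1* and *Itga8* reads was not tested.

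**Figure D3:**
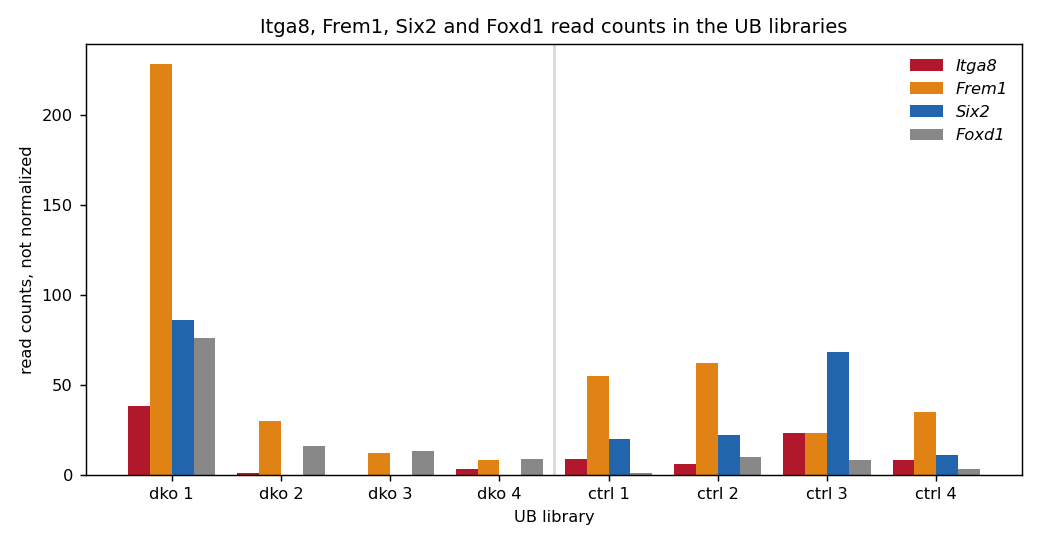
Read counts, not normalized, of Itga8, Frem1, Six2 and Foxd1 in the 8 UB libraries, with UB dko on the left and UB ctrl on the right. UB dko library 1 has 38 counts of Itga8, 86 of Six2 and 76 of Foxd1, and the other UB dko libraries have 0 to 3 of Itga8 and 0 of Six2.

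In the nephron progenitors the same loss was set against NP ctrl. *Itga8* was higher in NP dko, *Fras1* and *Frem2* were lower, and *Frem1*, *Grip1* and *Npnt* did not pass the test. So 1 of 6 members was higher and 2 were lower, where 25% of the 12431 genes tested were higher and 27.9% were lower, so calls were about as common among all genes. The members' median log2FC was -0.11, beside -0.05 over all genes tested, which scaling by library size alone moved to -0.44 and GC and length offsets to -0.21. All 3 NP dko libraries carry the GC trend and no NP ctrl library does, so that genotype and trend cannot be told apart. The offsets take out any difference that follows GC content or length, whatever its source. A call kept or lost with them therefore does not settle which of the 2 it came from.

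*Itga8*, the integrin chain with which the mesenchyme binds nephronectin, had 310, 325 and 310 CPM in NP dko, against 140, 169 and 190 CPM in NP ctrl. Each dko library lay above each control library, and 60.5% of all genes tested had groups without overlap. The means were 315 ± 8.8 CPM in NP dko and 166 ± 25.2 CPM in NP ctrl (SD, n = 3 each; log2FC 0.92, SE 0.16, adjusted p = 0.00031, edgeR). With GC and length offsets the change was 0.17 (adjusted p = 0.457, edgeR) and the call was lost. Genes in the quintile of GC content that holds *Itga8*, whose transcript has 44% GC, had a median log2FC of 0.49. The 10 stroma markers summed to 350, 475 and 366 CPM in NP dko and 182 to 251 CPM in NP ctrl. Of the 9 tested, 3 were higher and 1 was lower, beside 25% and 27.9% of all genes tested. *Foxd1*, 1 of the 10, had 89.2 to 136 CPM in NP dko and 35.3 to 43.5 CPM in NP ctrl. The part of stroma cells was not tested. Mitochondrial rRNA took 15.9%, 14.8% and 11% of counts in NP dko and 1.73% to 2.27% in NP ctrl, and its part in the NP differences was not tested.

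*Fras1* had 50.4, 57.5 and 56.4 CPM in NP dko, against 93.6, 101 and 142 CPM in NP ctrl. The groups did not overlap, and the means were 54.8 ± 3.86 CPM in NP dko and 112 ± 26 CPM in NP ctrl (SD, n = 3 each; log2FC -1.04, SE 0.20, adjusted p = 0.000805, edgeR). It stayed past the threshold with GC and length offsets, at a smaller change of -0.58 (adjusted p = 0.0285, edgeR). *Frem2* had 75, 92.1 and 72.2 CPM in NP dko, against 121, 116 and 167 CPM in NP ctrl, again without overlap. Its means were 79.8 ± 10.7 CPM in NP dko and 135 ± 28.4 CPM in NP ctrl (SD, n = 3 each; log2FC -0.77, SE 0.19, adjusted p = 0.00461, edgeR), and with the offsets the change was -0.35 and no longer passed (adjusted p = 0.136, edgeR). The quintile of GC content that holds both had a median log2FC of -0.78. The 10 UB epithelium markers summed to 65.5 to 92.1 CPM in NP dko, with 3 or 4 of them at 0, and 145 to 193 CPM in NP ctrl, with 1 or 2 at 0, while *Ret* was near 0 in all NP libraries. Most of that sum was *Gfra1*, at 56.7 ± 12.7 CPM in NP dko and 146 ± 19.6 CPM in NP ctrl (SD, n = 3 each). The part of bud cells was not tested.

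The other members gave values without a call. *Frem1* had 264, 277 and 225 CPM in NP dko, against 233, 243 and 156 CPM in NP ctrl (log2FC 0.28, SE 0.18, adjusted p = 0.221, edgeR). *Grip1* had 6.14 to 21.5 CPM in NP dko, from 61, 8 and 34 read counts, against 13, 15.4 and 13.8 CPM in NP ctrl (log2FC -0.02, SE 0.40, adjusted p = 0.975, edgeR). *Npnt* had 13.4, 24.6 and 12.2 CPM in NP dko, against 13.6, 11.5 and 30.7 CPM in NP ctrl (log2FC -0.20, SE 0.42, adjusted p = 0.709, edgeR). All of these groups overlapped, and the libraries of a group spread by more than the group means differed for Grip1 and Npnt.

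**Figure D4:**
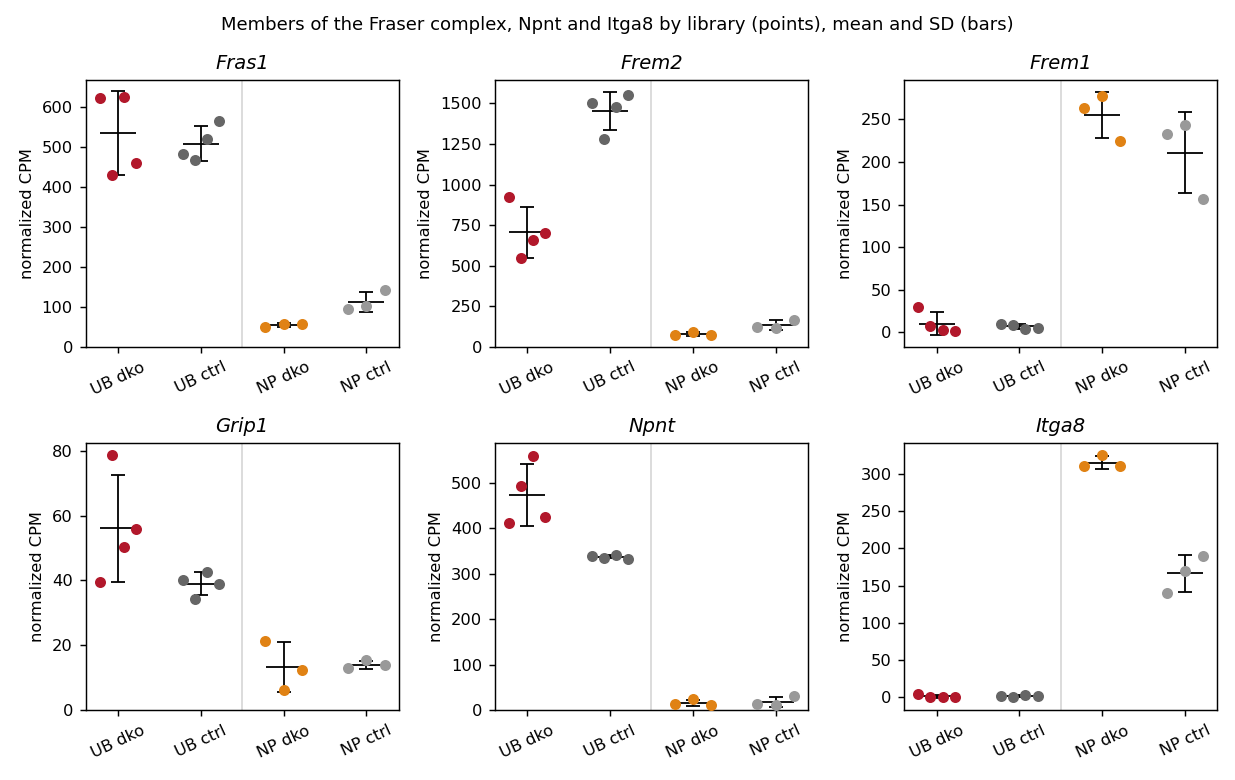
Normalized CPM of each member by library (points), with the mean and SD of UB dko and UB ctrl (n = 4 each) and NP dko and NP ctrl (n = 3 each). Frem2 is lower in each UB dko library, at 546 to 921 CPM, than in UB ctrl, at 1280 to 1550 CPM, and Itga8 is higher in NP dko, at 310 to 325 CPM, than in NP ctrl, at 140 to 190 CPM.

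**Figure D5:**
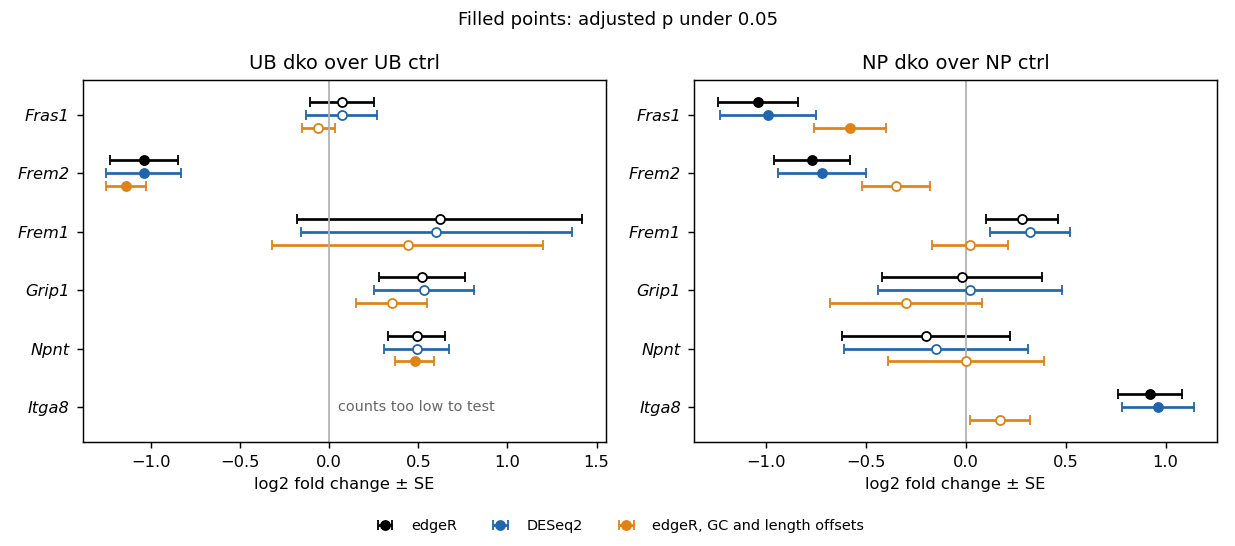
log2 fold change of each member with its SE, dko over ctrl, in UB (left) and NP (right), by edgeR, by DESeq2 and by edgeR with GC and length offsets, with filled points for an adjusted p under 0.05. Frem2 stays near -1 in UB under all 3, while Itga8 in NP moves to 0.17 and Frem2 in NP to -0.35 with the offsets.

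Whether the effect of the loss differed between the tissues was tested as an interaction, the UB change minus the NP change, in a fit over all 14 libraries. *Fras1* was the single member past the threshold (1.08, SE 0.28, adjusted p = 0.0345, edgeR), 1 of 6 where 4.33% of 15225 genes were higher and 1.81% were lower. It is the member that was lower in NP dko and differed by less than its spread in UB. With GC and length offsets the difference was 0.54 (adjusted p = 0.0609, edgeR), and 10 of the 14 fits that left out a library also lost the call, at 0.88 to 1.17 with adjusted p-values from 0.0504 (without UB dko library 1) to 0.1 (without NP dko library 1). These 10 were UB dko libraries 1 and 3, the 4 UB ctrl libraries, NP dko libraries 1 and 3 and NP ctrl libraries 2 and 3. *Frem2*, lower in both tissues, had -0.30 (SE 0.29, adjusted p = 0.531, edgeR), which became -0.79 with the offsets (adjusted p = 0.0113, edgeR). *Itga8* had -0.98 (SE 0.93, adjusted p = 0.54, edgeR), and entered this fit through its NP counts. Without UB dko library 1 its fitted value was -3.53, which rests on 1, 0 and 3 UB dko counts and is given with no test. *Npnt* (0.68), *Grip1* (0.50) and *Frem1* (0.36) had adjusted p-values of 0.308, 0.51 and 0.862 (edgeR).

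The ratio of *Frem2* to *Fras1* was also set side by side in the 2 tissues. It was 1.99, 2.14 and 1.71 in NP dko, against 1.72, 1.53 and 1.58 in NP ctrl, a log2 difference of 0.27 (exact permutation test, two-sided, p = 0.2, where 20 permutations allow 0.1 at the least). The UB change minus the NP change was -1.39 (exact permutation of genotype within tissue, two-sided, p = 0.00286, 1400 permutations). That permutation tests for no genotype effect in either tissue, and the UB change alone can lower its p. It therefore cannot show that the changes of the tissues differ. In UB ctrl *Frem2* was thus in 3.82-fold excess per kb over *Fras1*, while the ratio in UB dko (1.41 to 2.03) lay across the range of the NP libraries (1.53 to 2.14).

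Relatives and partners of the Fraser complex gave no call in UB dko. Of *Frem3*, *Vwa2*, *Crim1*, *Hmcn1* and *Grip2*, 3 were tested and 0 passed in either direction by edgeR, DESeq2 or limma voom, with a median log2FC of 0.19, and 1 was lower at an unadjusted edgeR p under 0.05. Over all genes tested in UB, 2.7% were higher and 1.24% lower by edgeR. *Frem3*, a further FREM protein, had 0 counts in both UB groups, and *Grip2*, the second GRIP scaffold, had 9 counts in UB dko and 33 in UB ctrl over all libraries. In NP dko 2 were tested and 0 passed by any of these tools or at an unadjusted p under 0.05, with a median of 0.39. *Frem3* had 7 counts in NP dko and 27 in NP ctrl, *Vwa2*, the gene of the complex-associated protein AMACO, 6 in NP dko and 20 in NP ctrl, and *Grip2* 0 in both. With GC and length offsets, 1 of the 3 tested in UB was higher and 1 lower, where 1316 of 13425 genes were called.

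Among 15 partners of integrin alpha 8 and other integrin genes, 11 were tested in UB, with a median log2FC of 0.22. By edgeR 1 was higher and 0 were lower, beside 2.7% and 1.24% of all genes tested. At an unadjusted p under 0.05, 2 were higher and 1 lower, while DESeq2 called 2 higher and 0 lower and limma voom 3 higher and 2 lower. The one that rose by edgeR was *Itgb6*, whose beta 6 chain pairs with alpha v in epithelia, with 688 counts in UB dko and 332 in UB ctrl over 4 libraries each (log2FC 1.30, SE 0.27, adjusted p = 0.0231, edgeR). *Itgb1*, the partner chain of integrin alpha 8, had 395 ± 55.3 CPM in UB dko and 321 ± 34.8 CPM in UB ctrl and did not pass (adjusted p = 0.348, edgeR). Too low to be tested in UB were *Tnc* (9 counts in UB dko and 5 in UB ctrl), *Vtn* (0 and 0), *Spp1* (0 and 19) and *Itga2b* (68 and 48), of which tenascin-C, vitronectin and osteopontin are other ligands with an RGD sequence.

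In NP 9 of these 15 were tested, 2 were higher and 6 were lower, beside 25% and 27.9% of all genes tested. Their median log2FC was -0.67, beside -0.05 over all genes. With the offsets 1 was higher and 2 were lower, where 3153 of 12431 genes were called. *Itgb1* stood at 349 ± 48.3 CPM in NP dko and 325 ± 42.6 CPM in NP ctrl (SD, n = 3 each; log2FC 0.11, SE 0.16, adjusted p = 0.601, edgeR). *Itgav*, the alpha v chain, rose (log2FC 1.27, adjusted p = 2.34e-05, edgeR), and so did *Itgb8* (1.30, adjusted p = 0.0116), a partner of alpha v. The ligand genes *Fn1* (-0.80, adjusted p = 0.00248, edgeR) and *Tnc* (-1.35, adjusted p = 0.00024) fell, as did *Itga5* (-2.33, adjusted p = 0.00042), the fibronectin receptor chain, *Itgb5* (-1.41, adjusted p = 0.00703), *Ltbp1* (-0.57, adjusted p = 0.0237) and *Kif26b* (-0.67, adjusted p = 0.00168), a kinesin needed for integrin alpha 8 in the mesenchyme. With the offsets *Itgav* (0.43, adjusted p = 0.0451, edgeR) and *Tnc* (-0.77, adjusted p = 0.015) still passed and *Itgb1* was lower (-0.53, adjusted p = 0.00834). The calls of the others were lost, at -0.14 for *Itgb8*, -0.07 for *Fn1*, -1.02 for *Itga5*, -0.10 for *Itgb5*, 0.04 for *Ltbp1* and -0.05 for *Kif26b*. Not tested for low counts were *Vtn* (2 counts in NP dko and 46 in NP ctrl), *Spp1* (1 and 5), *Egfl6* (8 and 13), *Itga2b* (0 and 39), *Itgb3* (1 and 7) and *Itgb6* (1 and 4).

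The GDNF and RET genes, to which signalling by nephronectin and integrin alpha 8 leads, had a median log2FC of -1.42 in UB dko. By edgeR 5 of 9 tested were lower and 0 higher, beside 1.24% and 2.7% of all genes tested. At an unadjusted p under 0.05, 1 was higher, and DESeq2 called 0 and limma voom 1 higher. *Etv5* (-2.40, SE 0.26, adjusted p = 0.00211, edgeR) and *Ret* (-1.70, SE 0.21, adjusted p = 0.00306, edgeR) fell with the smallest adjusted p. In NP dko 2 of 7 were higher and 4 lower, beside 25% and 27.9% of all genes tested, with a median of -0.70. *Gdnf*, the gene that integrin alpha 8 helps to keep on in the mesenchyme, had 61.7 ± 20.9 CPM in NP dko and 85.5 ± 8.46 CPM in NP ctrl (SD, n = 3 each) and did not pass (log2FC -0.50, SE 0.23, adjusted p = 0.081, edgeR). *Gfra1* (-1.39, adjusted p = 8.09e-05, edgeR) and *Etv4* (-2.52, adjusted p = 0.000198) fell, and *Spry1* (0.98, adjusted p = 0.000228) and *Eya1* (0.77, adjusted p = 0.000987) rose. With the offsets 1 was higher and 2 were lower, where 3153 of 12431 genes were called. *Spry1* (2.32, adjusted p = 4.1e-07, edgeR) and *Gfra1* (-1.30, adjusted p = 0.000151) kept their calls, and *Etv4* (-0.87, adjusted p = 0.0785) and *Eya1* (0.32, adjusted p = 0.099) lost theirs.

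All 14 basement membrane genes were tested in both tissues. In UB dko 1 rose, *Col4a5*, a type IV collagen chain (log2FC 1.04, SE 0.19, adjusted p = 0.0168, edgeR), and 0 fell by edgeR. Over all genes tested 2.7% were higher and 1.24% lower, and the median of the list was 0.16. At an unadjusted p under 0.05, 1 fell, and DESeq2 called 0 and limma voom 4 lower. In NP dko 12 fell and 1 rose, beside 27.9% and 25% of all genes tested, with a median of -1.67 beside -0.05 over all genes. With the offsets 5 fell and 1 rose, with a median of -0.46, where 3153 of 12431 genes were called. The lowest adjusted p-values were those of *Hspg2*, the perlecan gene (-3.90, adjusted p = 1.22e-07, edgeR), and *Col4a2* (30.2 ± 5.74 CPM in NP dko and 121 ± 7.15 CPM in NP ctrl, SD, n = 3 each, adjusted p = 6.18e-06), and *Col4a5* rose here too (0.68, adjusted p = 0.0195). With the offsets *Hspg2* had -2.06 (adjusted p = 6.27e-06, edgeR) and *Col4a5* 1.06 (adjusted p = 0.00152), while *Col4a2* had -0.16 and lost its call (adjusted p = 0.59).

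Across the 14 libraries the members fell into the same 2 sets by their log2 CPM. Pearson's r between *Fras1* and *Frem2* was 0.96, between *Npnt* and *Fras1* 0.96 and between *Itga8* and *Frem1* 0.96, while *Npnt* and *Itga8* had -0.96. Among 10322 genes compared, those like *Fras1* included *Myo5b* (0.997) and *Lamc1* (0.993), and those most like *Frem2* were *Mgat5* (0.985), *Nav1* (0.982) and *Cdh3* (0.981). *Npnt* was most like *Fosl2* (0.990), *Mpzl2* (0.988) and *Ahnak* (0.988), and *Grip1* like *Rbm47* (0.964), *Hivep2* (0.963) and *Sh3d19* (0.960). *Itga8* was most like *Eya1* (0.996), *Foxc1* (0.988) and *Shisa3* (0.987), and *Frem1* like *Foxc1* (0.981), *Eya1* (0.976) and *Vcan* (0.971). These values are a description, since the 14 points share 2 tissues, and the difference between tissues carries most of each.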

How the data were processed

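GFP-sorted cells were profiled by bulk RNA-Seq in 14 libraries. Per the study's methods, the authors made libraries with NuGen Ovation Solo, removed ribosomal RNA, trimmed single-end reads with Trimmomatic, mapped them to GRCm38 with STAR and counted them per gene with featureCounts on a GENCODE annotation. Among the tools listed by the submitters are also HISAT2, HTSeq, Subread and DESeq2. Each tissue has its own table of deposited counts, which are whole numbers of reads for every gene without normalization. A library was a separate embryo, so p-values measure the spread between embryos, taken as independent. Titles share a number among 3 UB ctrl, 2 UB dko, 2 NP ctrl and 2 NP dko libraries. Whether it marks a litter or dissection is not given in the sources used here. No such number occurs in both dko and ctrl of a tissue. Genotype and whatever the number marks therefore cannot be told apart, and the independence of the embryos is not established.

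Symbols, exon lengths and GC content came from GENCODE M21, which matched 55154 of 55335 UB and 52489 of 52636 NP identifiers. Genes were kept by filterByExpr (at least 10 counts in enough libraries, 15 in total), scaled by TMM and tested with the robust quasi-likelihood method of edgeR 4.0.16 (R 4.3.3), fitted over the groups compared, or over all 4 groups for the interaction on genes in both tables. Each SE was obtained by dividing the absolute log2FC by the root of the F statistic. *Itga8* in UB did not pass the filter and was compared by a permutation test. Alternatives were DESeq2 1.42.0, limma 3.58.1 voom with quality weights, RLE or library-size scaling, a filter at a mean count of 10 or none, GC and length offsets (splines of 4 degrees of freedom per library), the replicate number as a block, a log2FC of at least 1 and each library left out. UB dko libraries 1 and 3 alone, or 2 and 4 alone, and the *Frem2* to *Fras1* ratio were added after the data were seen. Fits were tested on simulated data.

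The members and gene lists were chosen with earlier results of these data known. All members are given in every library. Of the relatives and the integrin list every called or untested gene is given, of the other lists the 2 of smallest adjusted p in each direction and tissue, and for likeness the 3 genes of highest Pearson's r of log2 CPM with a prior count of 2. A gene that this last rule named is not reported here. *Itgb1* and *Gdnf* were added as partners whatever their values. Markers of UB epithelium, nephron progenitors and stroma and the MAPK/ERK targets were taken from fixed lists. Python 3.11.15 with pandas 2.3.3 read sequences, and matplotlib 3.10.9 drew the figures.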

Additional observations from a re-analysis of the deposited data

Results flagged for a closer look

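*Itga8* in UB dko library 1 stood at 4.94 CPM, far from 0.237, 0 and 0.496 CPM in the other UB dko libraries and past Dixon's 95% critical value for 4 samples. Of 12 groups of 4 UB libraries so examined it was the single one, and chance marks about 1 in 20.

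*Fras1* differed between the tissues in its change on loss of MEK1 and MEK2, by 1.08 on the log2 scale (edgeR interaction, adjusted p = 0.0345). It was not past the threshold with GC and length offsets (0.54, adjusted p = 0.0609, edgeR).

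The UB change of the *Frem2* to *Fras1* ratio minus its NP change was -1.39 on the log2 scale (exact permutation within tissue, p = 0.00286). That test is of no genotype effect in either tissue, so it cannot show that the changes differ. The ratio was chosen after the values were seen. It was lower in 4 of 4 UB dko libraries than in any UB ctrl library, and higher in 2 of 3 NP dko libraries than in any NP ctrl library.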

How the results depend on the processing

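The control comparison kept the call and direction of all 6 members in all 16 alternative fits. *Fras1* in NP kept its call in all 15 (-1.42 to -0.57) and *Frem2* in UB its direction in all 19 (-1.35 to -0.92). Fits that leave out a library rest on fewer samples, and the cause of the other changes was not tested.

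Over all genes, UB calls numbered 528, and 278 with library size only, 917 with no filter, 4640 with voom, 1408 with DESeq2, 1316 with offsets, 977 with offsets and replicate block, 1168 with UB dko libraries 1 and 3 only, 5841 with 2 and 4 only, and 40 to 1402 with a library left out. NP calls numbered 6570, and 3153 with offsets and 2730 with offsets and block. Interaction calls numbered 935, and 398 with library size only, 1887 with no filter, 2103 with voom, 1901 with DESeq2, 5216 with UB dko libraries 1 and 3 only, 591 with 2 and 4 only, and 40 to 2954 with a library left out.

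Members lower in UB numbered 1, and 0 to 1 with a library left out. Members higher in UB numbered 0, and 2 with voom (*Npnt*, *Grip1*), 1 with offsets, 1 with offsets and block, 1 with UB dko libraries 1 and 3 only and 2 with 2 and 4 only. In NP, members lower numbered 2 and higher 1, and 1 and 0 with offsets, 1 and 0 with offsets and block, and 1 and 0 at a log2FC of at least 1. In the interaction, members higher numbered 1, and 0 with library size only or offsets and 0 to 1 with a library left out. Members lower numbered 0, and 1 with offsets (*Frem2*), 1 with UB dko libraries 2 and 4 only (*Itga8*) and 0 to 1 with a library left out (*Itga8*, without UB dko library 1), and both *Itga8* values rest on 0 to 3 counts a UB dko library.

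Directions turned for members without a call. In UB, *Fras1* (0.07) had -0.28 with library size only, -0.07 with voom, -0.06 with offsets, -0.06 with offsets and block, -0.20 with UB dko libraries 2 and 4 only, and -0.02 and -0.03 without UB dko library 1 or 3 (highest with a library left out, 0.16). *Frem1* in UB (0.62) had -1.45 with voom, -0.40 with offsets and block, -0.72 with UB dko libraries 2 and 4 only and -0.88 without UB dko library 1 (highest with a library left out, 0.94). In NP, *Frem1* (0.28) had -0.11 with library size only. *Grip1* in NP (-0.02) had 0.05 with RLE, 0.01 with a mean count of at least 10, 0.02 with DESeq2, and 0.29, 0.05 and 0.03 without NP dko library 2, NP dko library 3 or NP ctrl library 2 (lowest with a library left out, -0.51). *Npnt* in NP (-0.20) had 0 with voom, 0.06 with offsets and block and 0.36 without NP ctrl library 3 (lowest with a library left out, -0.53). The *Frem1* interaction (0.36) had -1.65 with voom, -1.07 with UB dko libraries 2 and 4 only and -1.22 without UB dko library 1 (highest with a library left out, 0.73).

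Same-numbered dko and ctrl libraries deviated from their group means with correlations of -0.28 to 0.12 in UB and -0.06 to -0.02 in NP, so the numbers do not pair the samples. With the replicate block UB calls numbered 67 and members lower in UB 0 (*Frem2* -1.06, adjusted p = 0.0622, edgeR), interaction calls 78 and members higher 0, *Frem1* in UB was -0.18 and its interaction -0.36. Of the UB libraries, 3 of 4 dko correlated better with another number than with their own.

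Depth limits *Itga8* in UB, with 0 to 38 counts a library, and *Grip1* and *Npnt* in NP dko, with 8 to 61 counts a library.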
